A study of Mus musculus with 25 samples.

Results

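The comparison set 10 starved libraries of KPC cells carrying either of a pair of hairpins against Slug, taken as one group, against 5 starved libraries carrying a hairpin against luciferase. KPC is a pancreatic ductal adenocarcinoma cell line of C57BL/6 mice. The libraries were chosen by their labels: 5 with the first Slug hairpin (shSlug1), 5 with the second (shSlug2) and 5 with the luciferase hairpin (shLuc), 15 of the 25 libraries of the series. The remaining 10 came from the parental line without a hairpin, 5 starved and 5 in complete medium. All 15 hairpin libraries came from cells kept for 24 h in glutamine-free DMEM with 10% dialysed serum, so every difference below is one between starved cells. The question was which changes both Slug hairpins share, down to small ones that a single hairpin with its 5 libraries might miss. Each hairpin is 1 labelled line, the sources used here do not say how these lines were derived, and no hairpin line was measured in complete medium. The shLuc group is also 1 line, so what sets that line apart from the parental cells cannot be told apart from the loss of Slug wherever both Slug lines differ from it. Whether the 5 libraries of a group were separate cultures is likewise not stated. The p-values of the fit used below rest on the spread between libraries within a group, taken over all 25 libraries. That spread may be technical, and 1 value per gene serves every group, also one with a wider spread of its own.

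Slug, the protein of Snai2, is a zinc-finger transcription factor of the Snail family that binds E-box sequences and mostly represses. It is known as a driver of the epithelial to mesenchymal transition (EMT), in which epithelial cells lose junction proteins such as E-cadherin, gain vimentin and fibronectin and become motile. In pancreatic cancer this programme is tied to invasion and spread, and in several cell types Snail factors are also known to slow proliferation.

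Levels are given in CPM, the counts of a gene after the counts of each library were brought to one common sum, from 3' end sequencing of polyadenylated RNA, in which a gene gives about as many counts per transcript whatever its length. The 15 libraries held 211687 to 421945 counts each, so that 1 count was worth 2.37 to 4.72 CPM and a value of 0 in 1 library allowed up to 7.11 to 14.2 CPM, the worth of 3 counts. These limits cover counting error only. Mitochondrially encoded genes took 20.9% ± 4.204 of the counts with shSlug1, 16.2% ± 1.504 with shSlug2 and 19.8% ± 1.65 with shLuc (SD, n = 5 each). The two-sided exact permutation p for this share was 0.518 between the 10 Slug hairpin libraries and shLuc and 0.0317 between the hairpins, with shSlug1 replicates 4 and 5 highest at 24.3% and 26.5%. Across genes, replicates 4 and 5 also stood apart from shSlug1 replicates 1 to 3. The chi-square per gene over counting error was 2.63 to 3.75 for pairs between these sets. It was 1.37 to 1.59 within replicates 1 to 3 and 1.42 between 4 and 5, and reached 2.85 within shLuc and 2.19 within shSlug2. The reason was not tested. The summed level of 8 ductal carcinoma markers was 5107 to 5875 CPM with shSlug1, 5291 to 6413 CPM with shSlug2 and 4947 to 6453 CPM with shLuc, most of it Krt18. Of these markers Epcam, a defining epithelial surface protein, was all but absent, at 0 to 4.72 CPM in the Slug hairpin libraries and 0 to 2.75 CPM with shLuc. The measured markers of fibroblasts (6), endothelium (4), acinar cells (2) and islets (4) summed to 0 to 16.6 CPM in every library, with Col3a1, Prss1 and Gcg at 0 in all 15. The 3 leucocyte markers reached 29.0 CPM in the Slug hairpin libraries and 35.7 CPM with shLuc, nearly all of it Cd14, and overlapped between the groups.

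Snai2 (ENSMUSG00000022676.6, mm10, chromosome 16, 14705852 to 14709385, plus strand) was low in all 10 Slug hairpin libraries. Its level was 0, 7.11, 5.29, 8.58 and 9.45 CPM with shSlug1 and 4.82, 5.76, 7.66, 0 and 3.23 CPM with shSlug2, against 92.7, 65.99, 34.1, 37.98 and 48.8 CPM with shLuc. The means were 6.09 ± 3.75 CPM with shSlug1 and 4.29 ± 2.89 CPM with shSlug2, against 55.9 ± 23.99 CPM with shLuc. The highest Slug hairpin value, 9.45 CPM, lay below the lowest shLuc value, 34.1 CPM, and the 2 values of 0 fell in shSlug1 replicate 1 and shSlug2 replicate 4. Over both hairpins Snai2 was 10.8-fold lower (log2 change -3.45, SE 0.48, limma adjusted p = 1.4e-06; two-sided exact permutation p = 0.000333, the smallest that 3003 splits of 10 against 5 allow). In starved parental cells it averaged 79.5 CPM. Here and below, a mean is given ± SD over the 5 libraries of a group (n = 5), and SE is that of the log2 change. In bulk RNA, fewer cells with the transcript and less transcript per cell cannot be told apart, here and for every gene below.

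Besides Snai2 the changes over both hairpins were mostly of modest size. Higher with both hairpins together were 9 of 53 DNA replication genes and 3 of 25 condensin and cohesin genes, and lower were 6 of 19 mesenchymal genes, 3 of 33 integrin and focal adhesion genes and 2 of 6 simple epithelial keratins. These lists were chosen with earlier results of these data known. Fitting all 25 libraries with 1 coefficient per group, and setting the mean of both Slug hairpins against shLuc, limma called 141 of 12473 genes tested at an adjusted p under 0.05, which is 1.13% of them. Of these, 78 were higher (0.625%) and 63 lower (0.505%). The absolute log2 change was under 1 in 122 of the 141, with a median of 0.66 and a smallest value of 0.39. Taking the mean of both hairpins against the same shLuc libraries favours genes whose hairpin changes share a sign, as they did in 140 of the 141. In 114 (72 higher and 42 lower) the smaller of the 2 hairpin changes was at least 0.5 of the larger, which is called an even change below. In 27 it was not, and in 8 of the 141 the difference between hairpins itself had a limma adjusted p under 0.05. In 45 of the called genes the 10 Slug hairpin libraries and the 5 shLuc libraries did not overlap, as they did not in 0.569% of all genes tested. Leaving out 1 library moved the count most for the control: 67 genes were called without shLuc replicate 5, and 86 without shLuc replicate 4.

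**Figure D1:**
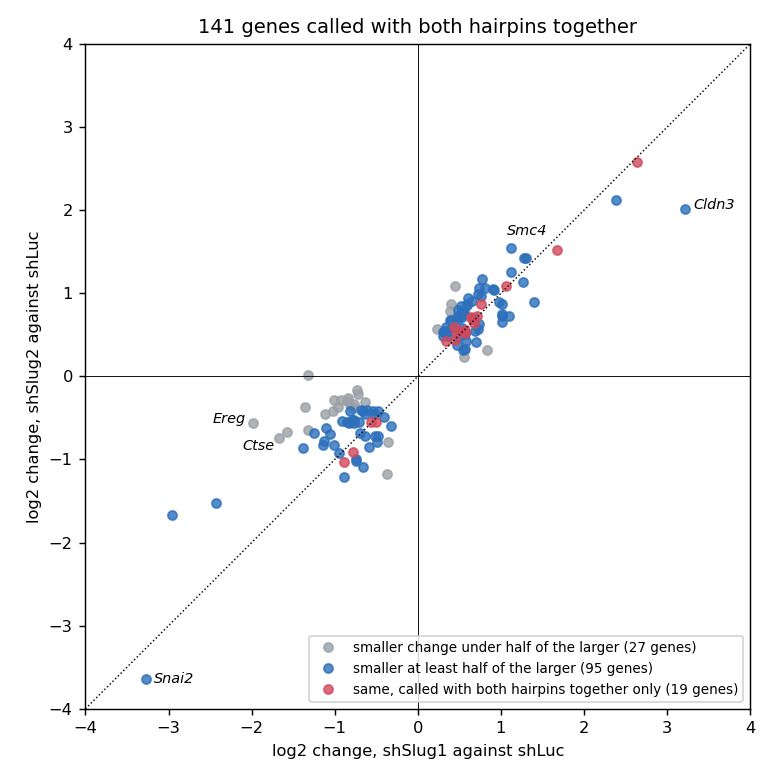
Each point is 1 of the 141 genes called with both Slug hairpins together, placed by its log2 change with shSlug1 (horizontal) and with shSlug2 (vertical), each against shLuc; the dotted line marks equal changes. Most points lie along the line and within 1 log2 unit of 0, the 27 grey points lie off it, and Snai2 stands alone at the lower left.

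Joining the hairpins makes the error smaller by design, since 10 libraries stand against 5 in place of 5 against 5, and the joint change is the mean of both. The median SE of a log2 change over the genes tested was 0.42 for both hairpins together and 0.48 for either alone. Alone, shSlug1 gave 182 calls (1.46% of genes tested) and shSlug2 gave 81 (0.649%), against the same 5 shLuc libraries. The hairpins differed from each other in 64 genes (0.513%).

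The genes with the strongest even rise included ones of chromosome structure, DNA replication and vesicle traffic. Smc4, an ATPase of the condensin complex that compacts chromosomes (chromosome 3, 69004738 to 69034623, plus strand), had 673, 545, 291, 652 and 487 CPM with shSlug1 and 614, 642, 694, 738 and 740.1 CPM with shSlug2, against 252, 234, 229, 212 and 242 CPM with shLuc. The means were 529.6 ± 154 CPM with shSlug1 and 686 ± 56.5 CPM with shSlug2, against 234 ± 14.9 CPM with shLuc. Every Slug hairpin library was above every shLuc library, shSlug1 replicate 3 being the closest, and the starved parental mean of 398 CPM lay between the groups. The rise was 2.599-fold (log2 change 1.33, SE 0.12, limma adjusted p = 7.9e-12). Sdcbp, which encodes syntenin, an adaptor for syndecans in membrane traffic and exosome formation (chromosome 4, 6365650 to 6408423, plus strand), had 686, 735, 821, 588 and 439 CPM with shSlug1 and 607, 564, 518, 667 and 585 CPM with shSlug2, against 222, 261, 285, 253 and 318 CPM with shLuc. The means were 654 ± 146 CPM with shSlug1 and 588 ± 54.9 CPM with shSlug2, against 268 ± 35.7 CPM with shLuc. The groups were again apart, by 2.32-fold (log2 change 1.20, SE 0.11, limma adjusted p = 7.9e-12), and the parental mean was 426 CPM.

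Golt1b, a small membrane protein of Golgi transport (chromosome 6, 142387221 to 142403858, plus strand), had 73.96, 68.7, 42.4, 55.8 and 85.03 CPM with shSlug1 and 72.2, 66.2, 76.6, 53.9 and 87.3 CPM with shSlug2, against 25.96, 22, 18.6, 41.1 and 24.4 CPM with shLuc. The means were 65.2 ± 16.5 CPM with shSlug1 and 71.2 ± 12.4 CPM with shSlug2, against 26.4 ± 8.68 CPM with shLuc. The lowest Slug hairpin value was 42.4 CPM and the highest shLuc value 41.1 CPM, so the groups only just failed to overlap. The change was 2.58-fold (log2 change 1.36, SE 0.23, limma adjusted p = 0.00015), and the parental mean of 68.6 CPM lay at the level of the Slug hairpin cells.

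Tyms, thymidylate synthase, which makes the thymidine nucleotide for DNA (chromosome 5, 30058202 to 30073617, minus strand), had 102, 82.9, 92.7, 98.7 and 66.1 CPM with shSlug1 and 96.3, 74.8, 86.8, 141 and 93.7 CPM with shSlug2, against 37.1, 32.99, 55.8, 31.6 and 46.1 CPM with shLuc. The means were 88.5 ± 14.4 CPM with shSlug1 and 98.5 ± 25.1 CPM with shSlug2, against 40.7 ± 10.2 CPM with shLuc. All Slug hairpin values exceeded all shLuc values, and the rise was 2.295-fold (log2 change 1.18, SE 0.18, limma adjusted p = 2.1e-05). Rpa2, a subunit of the replication protein A complex that coats single-stranded DNA (chromosome 4, 132768332 to 132778752, plus strand), had 71.4, 56.9, 66.2, 51.5 and 66.1 CPM with shSlug1 and 50.6, 60.4, 68.9, 62.2 and 107 CPM with shSlug2, against 22.2, 19.2, 37.2, 15.8 and 35.3 CPM with shLuc. The means were 62.4 ± 8.05 CPM with shSlug1 and 69.7 ± 21.7 CPM with shSlug2, against 25.96 ± 9.68 CPM with shLuc. Here too the groups were apart, with a rise of 2.55-fold (log2 change 1.36, SE 0.25, limma adjusted p = 0.0006). The starved parental means were 55.4 CPM for Tyms and 29.3 CPM for Rpa2, both nearer to shLuc.

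Hells, a chromatin remodelling helicase needed for DNA methylation, averaged 267 ± 33.3 CPM with shSlug1 and 309.8 ± 48.2 CPM with shSlug2, against 157 ± 18.02 CPM with shLuc (log2 change 0.87, SE 0.12, limma adjusted p = 1.4e-06). Snhg15, a noncoding host gene of small nucleolar RNA, averaged 367 ± 27.5 CPM with shSlug1 and 464 ± 49.8 CPM with shSlug2, against 224 ± 47.6 CPM with shLuc (log2 change 0.90, SE 0.18, limma adjusted p = 0.0034). Both were higher in every Slug hairpin library than in any shLuc library. The starved parental mean of Hells, 233 CPM, lay nearer to the Slug hairpin cells, and that of Snhg15, 162 CPM, nearer to shLuc. Tmem97, an endoplasmic reticulum membrane protein of sterol handling, averaged 54.1 ± 7.66 CPM with shSlug1 and 55.1 ± 9.74 CPM with shSlug2, against 27.7 ± 11.2 CPM with shLuc (log2 change 1.08, SE 0.28, limma adjusted p = 0.036). Dctpp1, a pyrophosphatase that clears modified cytidine nucleotides, averaged 87.9 ± 23.8 CPM with shSlug1 and 87.9 ± 16.4 CPM with shSlug2, against 52.3 ± 8.77 CPM with shLuc (log2 change 0.72, SE 0.18, limma adjusted p = 0.019). Of these genes Dctpp1 alone lost its call without shLuc replicate 5 (adjusted p = 0.084), and Tmem97 was called in 5 of the 15 fits that each left out 1 hairpin library.

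**Figure D2:**
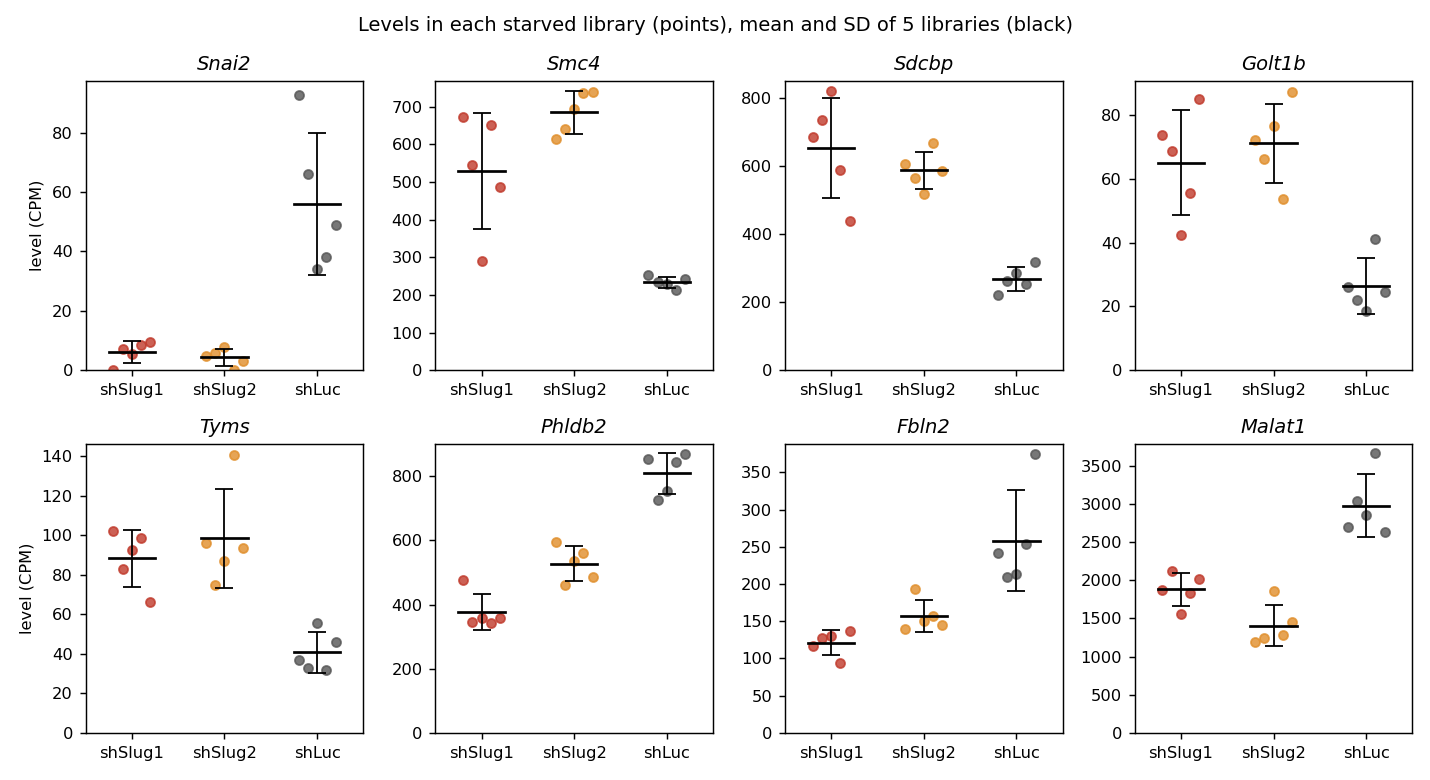
Levels in CPM of 8 genes in the 15 starved hairpin libraries, 1 point per library, for shSlug1, shSlug2 and shLuc, with the mean and SD of 5 libraries in black. In every panel the Slug hairpin points of both colours lie on one side of all shLuc points: below for Snai2, Phldb2, Fbln2 and Malat1, above for Smc4, Sdcbp, Golt1b and Tyms.

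The strongest even falls after Snai2 included genes of the cell cortex and the matrix and the nuclear RNA Malat1. Phldb2, which anchors microtubules at the cell cortex near focal adhesions (chromosome 16, 45746243 to 45953598, minus strand), had 477, 346, 357, 343 and 359 CPM with shSlug1 and 595, 461, 536, 559 and 485 CPM with shSlug2, against 853, 726, 754, 845 and 868 CPM with shLuc. The means were 376 ± 56.6 CPM with shSlug1 and 527 ± 54.6 CPM with shSlug2, against 809 ± 64.7 CPM with shLuc. All 10 Slug hairpin libraries were lower, and shSlug1 was the lower of the hairpins, with log2 changes of -1.11 with shSlug1 and -0.62 with shSlug2. Over both it was 1.79-fold lower (log2 change -0.86, SE 0.10, limma adjusted p = 8.9e-09), with a starved parental mean of 863 CPM. Fbln2, which encodes the matrix protein fibulin-2 (chromosome 6, 91212455 to 91272540, plus strand), had 117, 128, 129.7, 94.4 and 137 CPM with shSlug1 and 139.7, 193, 151, 157 and 145 CPM with shSlug2, against 241, 209, 214, 253 and 374 CPM with shLuc. The means were 121 ± 16.6 CPM with shSlug1 and 157 ± 20.97 CPM with shSlug2, against 258 ± 67.5 CPM with shLuc. The groups did not overlap, and shLuc replicate 5 was the highest of all. Fbln2 was 1.86-fold lower (log2 change -0.88, SE 0.13, limma adjusted p = 3.4e-06), and the parental mean was higher still at 528 CPM.

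Malat1, an abundant nuclear long noncoding RNA (chromosome 19, 5795690 to 5802672, minus strand), had 1864, 2124, 1557, 1831 and 2017 CPM with shSlug1 and 1185, 1238, 1853, 1284 and 1454 CPM with shSlug2, against 2692, 3035, 2856, 3659 and 2632 CPM with shLuc. The means were 1879 ± 215 CPM with shSlug1 and 1403 ± 271 CPM with shSlug2, against 2975 ± 413 CPM with shLuc. Here shSlug2 was the lower of the hairpins, and no Slug hairpin library reached the shLuc range. The fall was 1.81-fold (log2 change -0.88, SE 0.10, limma adjusted p = 8.9e-09), but the starved parental mean of 1865 CPM lay at the level of the Slug hairpin cells. Krt7, a keratin of ductal epithelium, had 63.8, 115 and 164 CPM as the lowest, median and highest of the 10 Slug hairpin libraries, against 168 to 226 CPM with shLuc (means 131 ± 30.6 CPM with shSlug1 and 109.7 ± 30.5 CPM with shSlug2, against 193 ± 21.9 CPM with shLuc; log2 change -0.72, SE 0.16, limma adjusted p = 0.01). It too had a parental mean, 114 CPM, like that of the Slug hairpin cells.

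Rnf181, an E3 ubiquitin ligase, averaged 42.1 ± 12.98 CPM with shSlug1 and 42.03 ± 7.81 CPM with shSlug2, against 79.8 ± 10.9 CPM with shLuc (log2 change -0.93, SE 0.22, limma adjusted p = 0.012). St3gal4, a sialyltransferase of the Golgi, averaged 32.8 ± 11.2 CPM with shSlug1 and 28.4 ± 7.87 CPM with shSlug2, against 57.9 ± 9.26 CPM with shLuc (log2 change -0.96, SE 0.24, limma adjusted p = 0.02). Ecm1, a secreted matrix glycoprotein, averaged 38.1 ± 20.4 CPM with shSlug1 and 51.1 ± 17.9 CPM with shSlug2, against 89.9 ± 13.5 CPM with shLuc (log2 change -1.12, SE 0.27, limma adjusted p = 0.018). All 3 were lower in each Slug hairpin library than in any shLuc library. The starved parental means were 50.3 CPM for Rnf181 and 32.1 CPM for Ecm1, both nearer to the Slug hairpin cells. For St3gal4 it was 60.9 CPM, nearer to shLuc. Slc44a1, a choline transporter, averaged 28.6 ± 8.06 CPM with shSlug1 and 32.2 ± 7.62 CPM with shSlug2, against 58.8 ± 17.98 CPM with shLuc (log2 change -0.92, SE 0.22, limma adjusted p = 0.017). Apob, the structural protein of lipoproteins, averaged 81.8 ± 16.4 CPM with shSlug1 and 79.7 ± 25.1 CPM with shSlug2, against 129 ± 35.1 CPM with shLuc (log2 change -0.68, SE 0.16, limma adjusted p = 0.013), far under its starved parental mean of 540.5 CPM in all 3 hairpin groups. Without shLuc replicate 5, which was highest in Rnf181, Slc44a1, Ecm1 and Apob, those 4 genes were no longer called (adjusted p = 0.08, 0.12, 0.099 and 0.16), and the other 6 of the 10 were.

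Promoter sequences of 3 of these genes show what was searched for around the start sites. Each covers 250 bases before to 50 after a RefSeq start in GRCm38.p6, and capitals mark the E-box of the Snail family, CAGGTG on either strand (CACCTG on the other), or the core letters of an E2F site, TTCCCGC on either strand (GCGGGAA on the other). E2F factors switch on replication genes, and this second motif was picked after the gene changes were known. Rpa2 is shown as the risen gene with the largest smaller-hairpin change and an E2F core, Tyms as a risen gene with an E-box, and Rnf181 as a fallen gene with one.
Rpa2 (chr4:132768110-132768409, + strand): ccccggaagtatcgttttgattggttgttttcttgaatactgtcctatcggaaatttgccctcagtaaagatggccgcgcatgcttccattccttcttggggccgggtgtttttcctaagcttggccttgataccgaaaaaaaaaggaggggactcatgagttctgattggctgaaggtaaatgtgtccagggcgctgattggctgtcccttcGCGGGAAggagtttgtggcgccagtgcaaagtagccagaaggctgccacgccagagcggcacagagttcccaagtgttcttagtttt
Tyms (chr5:30073576-30073875, - strand): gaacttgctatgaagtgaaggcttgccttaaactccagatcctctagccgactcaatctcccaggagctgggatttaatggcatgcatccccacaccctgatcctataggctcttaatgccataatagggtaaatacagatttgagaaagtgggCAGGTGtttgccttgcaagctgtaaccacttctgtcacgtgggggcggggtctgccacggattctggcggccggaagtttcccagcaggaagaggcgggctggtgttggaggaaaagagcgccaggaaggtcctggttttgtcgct
Rnf181 (chr6:72362383-72362682, - strand): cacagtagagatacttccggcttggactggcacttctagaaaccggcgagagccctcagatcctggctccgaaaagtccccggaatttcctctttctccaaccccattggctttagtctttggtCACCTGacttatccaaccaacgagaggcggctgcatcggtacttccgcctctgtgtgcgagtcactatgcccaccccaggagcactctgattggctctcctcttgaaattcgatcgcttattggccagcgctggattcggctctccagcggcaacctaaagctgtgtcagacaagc
The E-box was in 7.14% of the promoters of genes called higher (5 of 70), in 16.7% of those of genes called lower (9 of 54) and in 17.7% of those of all genes tested (2053 of 11610). The E2F core was in 20% of the promoters of genes called higher (14 of 70), in 5.56% of those called lower (3 of 54) and in 8.43% of all (979 of 11610). Among the 9 replication genes called higher it was in 6 of 11 promoters, 54.5%. These 11 are part of the 70. No share was taken for replication genes that were not called, so the 54.5% cannot be tied to the rise. These counts describe letters in a window of 300 bases. They do not show binding, and a promoter without the letters says nothing of either factor.

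Some genes were called only when the hairpins were joined. With an even change and no call in either hairpin alone, 19 genes passed, 0.152% of those tested, 15 higher and 4 lower. The 16 of them that reached 10 CPM and carried a gene name (12 higher, 4 lower) changed by 0.44 to 1.59 log2 units in size. The requirement of an even change keeps the hairpins of these genes close, so their closeness is part of the choice. In 6 of the 16 the 10 Slug hairpin libraries did not overlap the 5 shLuc libraries. For the genes of this class described in the text, the limma adjusted p of a single hairpin ran from 0.053 (St3gal4 with shSlug2) to 0.18 (Stoml2 with shSlug2). The class is thus set by the cut of 0.05, and several members lay just over it with 1 hairpin alone.

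Among the risen genes of this kind was Tcof1, the treacle protein of ribosomal RNA transcription, which averaged 134 ± 29.2 CPM with shSlug1 and 131 ± 11.99 CPM with shSlug2, against 91.4 ± 28.7 CPM with shLuc (log2 change 0.56, SE 0.14, limma adjusted p = 0.028). Its log2 changes were 0.57 with shSlug1 and 0.56 with shSlug2. Only 4 of the 10 Slug hairpin libraries exceeded every shLuc value of Tcof1, and its starved parental mean was above all hairpin groups at 213 CPM. Gar1, a core protein of the particles that pseudouridylate ribosomal RNA, averaged 237 ± 46.3 CPM with shSlug1 and 261 ± 31.8 CPM with shSlug2, against 175 ± 36.99 CPM with shLuc (log2 change 0.51, SE 0.14, limma adjusted p = 0.037). Pclaf, a partner of the replication clamp PCNA, averaged 76.1 ± 17.1 CPM with shSlug1 and 82.1 ± 15.1 CPM with shSlug2, against 47.1 ± 19.1 CPM with shLuc (log2 change 0.82, SE 0.22, limma adjusted p = 0.043). Etaa1, an activator of the replication stress kinase ATR, had 43.4, 21.3, 23.8, 17.2 and 33.1 CPM with shSlug1 and 19.3, 23.03, 20.4, 24.9 and 32.3 CPM with shSlug2, against 25.96, 11, 6.202, 18.99 and 0 CPM with shLuc. The means were 27.7 ± 10.5 CPM with shSlug1 and 23.98 ± 5.15 CPM with shSlug2, against 12.4 ± 10.3 CPM with shLuc. Its shLuc values were uneven, with 0 in replicate 5, and its adjusted p of 0.036 with limma was 0.072 with edgeR and 0.43 without that library.

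Dctpp1 (log2 changes 0.71 with shSlug1 and 0.73 with shSlug2) and Tmem97 (1.07 with shSlug1 and 1.08 with shSlug2), described above, belonged to the same class. Ifrd1, a transcriptional coregulator induced by growth signals and stress, had 143, 121, 106, 107 and 94.5 CPM with shSlug1 and 149, 92.1, 91.9, 87.01 and 149 CPM with shSlug2, against 66.7, 82.5, 55.8, 75.96 and 73.3 CPM with shLuc. The means were 114 ± 18.5 CPM with shSlug1 and 114 ± 32.2 CPM with shSlug2, against 70.9 ± 10.1 CPM with shLuc. The lowest Slug hairpin value, 87.0 CPM, was above the highest of shLuc, 82.5 CPM (log2 change 0.66, SE 0.17, limma adjusted p = 0.028), though the starved parental mean was higher than both at 149 CPM. Stoml2, an organiser of the mitochondrial inner membrane, averaged 222 ± 31.2 CPM with shSlug1 and 213 ± 20.3 CPM with shSlug2, against 149 ± 16.9 CPM with shLuc with no overlap (log2 change 0.54, SE 0.14, limma adjusted p = 0.036). Bloc1s4, a subunit of the complex that builds lysosome-related organelles, averaged 131 ± 24.1 CPM with shSlug1 and 141 ± 36.7 CPM with shSlug2, against 83.6 ± 14.7 CPM with shLuc (log2 change 0.68, SE 0.18, limma adjusted p = 0.033). Gmfb, a regulator of actin branches, showed the smallest change of the 16 at 411 ± 63.7 CPM with shSlug1 and 408 ± 72.2 CPM with shSlug2, against 298 ± 20.2 CPM with shLuc (log2 change 0.44, SE 0.12, limma adjusted p = 0.036).

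The 4 fallen genes of this class were St3gal4, Golim4, Dync1i2 and Ube2h. St3gal4 had log2 changes of -0.89 with shSlug1 and -1.03 with shSlug2. Golim4, an integral Golgi protein, averaged 116 ± 24.5 CPM with shSlug1 and 112 ± 17.6 CPM with shSlug2, against 164 ± 27.6 CPM with shLuc (log2 change -0.53, SE 0.13, limma adjusted p = 0.026). Dync1i2, a cargo-binding chain of the dynein motor, averaged 105 ± 14.1 CPM with shSlug1 and 107 ± 19.4 CPM with shSlug2, against 155 ± 14.3 CPM with shLuc (log2 change -0.56, SE 0.14, limma adjusted p = 0.032). Ube2h, a ubiquitin-conjugating enzyme, averaged 32.5 ± 11.3 CPM with shSlug1 and 29.3 ± 9.58 CPM with shSlug2, against 55.3 ± 13.8 CPM with shLuc (log2 change -0.85, SE 0.22, limma adjusted p = 0.036). Dync1i2 and St3gal4 did not overlap between the groups, while 3 of 10 Slug hairpin libraries reached the shLuc range for Golim4 and for Ube2h. The class depended on the controls: without shLuc replicate 5, 9 of the 10 risen genes described and 3 of the 4 fallen ones lost their call, Tmem97 and St3gal4 keeping it, and 5 genes in all met the definition then, 5 also without shLuc replicate 1, 6 without replicate 4 and 8 without replicate 2.

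**Figure D3:**
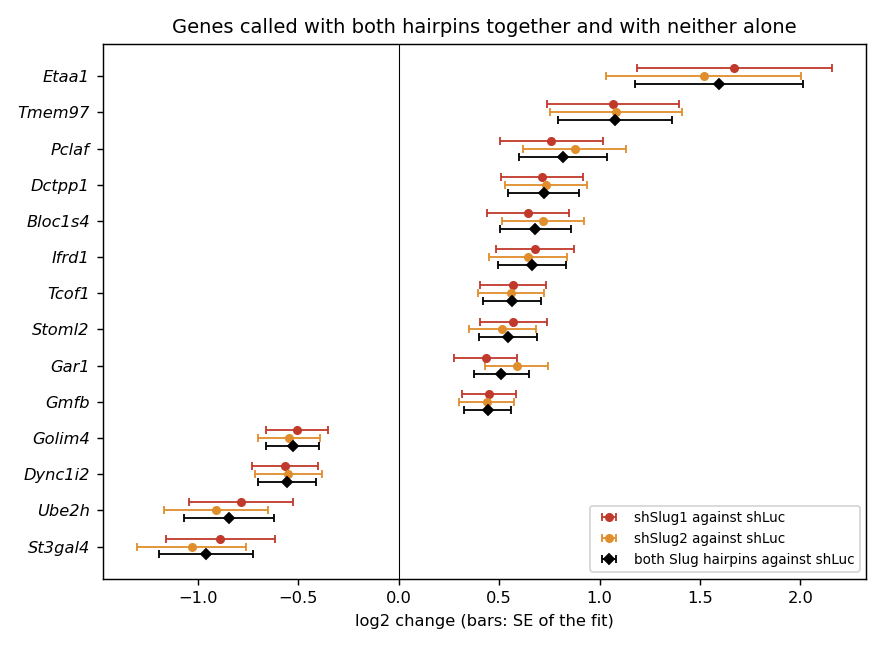
Log2 change against shLuc, with the SE of the fit, of the 14 named genes called with both Slug hairpins together and with neither alone: shSlug1, shSlug2 and both together (black). The hairpin estimates of each gene lie within 1 SE of each other, and the bars of the joint estimate are shorter.

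DNA replication genes formed the list with the most calls. Of 53 tested, 9 were called higher and 0 lower, which is 17.0% against 0.625% of all genes called higher. The list was chosen with earlier results of these data known, so this share describes its members and is not a test. The median log2 change was 0.45 over the list (0.44 with shSlug1, 0.53 with shSlug2), beside -0.06 over all genes tested. Both hairpins were above shLuc in 41 members and both below it in 3, beside 3789 and 4710 of the 12473 genes tested. At an unadjusted limma p under 0.05, 21 members were higher and 0 lower, a cut at which no share of all genes was taken. edgeR and DESeq2 each called 12 members higher and 0 lower, beside 270 and 267 calls in either direction over all genes. The mean log2(CPM + 1) of the 53 genes ran from 5.39 to 5.74 in the shSlug1 libraries, from 5.55 to 5.74 in the shSlug2 libraries and from 4.94 to 5.32 in the shLuc libraries, without overlap, and from 5.34 to 5.73 in starved parental cells. In this mean the parental libraries all lay above shLuc and overlapped the Slug hairpin lines.

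The called members act at several steps of replication. Of the helicase that unwinds DNA, Mcm3 averaged 118 ± 25.5 CPM with shSlug1 and 134 ± 18.1 CPM with shSlug2, against 79.9 ± 14.8 CPM with shLuc (log2 change 0.65, SE 0.15, limma adjusted p = 0.01). Mcm7, of the same ring, averaged 120.4 ± 14.4 CPM with shSlug1 and 142 ± 20.5 CPM with shSlug2, against 84.2 ± 14.7 CPM with shLuc (log2 change 0.64, SE 0.15, limma adjusted p = 0.01). The starved parental means of Mcm3, 117 CPM, and Mcm7, 158 CPM, lay nearer to the Slug hairpin cells. Those of the other called members lay nearer to shLuc. The clamp loader subunit Rfc4 had 279, 383 and 580.1 CPM as the lowest, median and highest of the 10 Slug hairpin libraries, against 203 to 267 CPM with shLuc. Its means were 394 ± 97.7 CPM with shSlug1 and 400.4 ± 104 CPM with shSlug2, against 241 ± 26.9 CPM with shLuc, with no overlap of the groups (log2 change 0.69, SE 0.14, limma adjusted p = 0.002). Of the polymerases, Pold2, a subunit of polymerase delta, averaged 167 ± 29.9 CPM with shSlug1 and 158 ± 46.3 CPM with shSlug2, against 100.0 ± 19.1 CPM with shLuc (log2 change 0.69, SE 0.16, limma adjusted p = 0.01). Pole3, a histone-fold subunit of polymerase epsilon, averaged 171 ± 25.02 CPM with shSlug1 and 206 ± 28.9 CPM with shSlug2, against 128 ± 14.2 CPM with shLuc (log2 change 0.54, SE 0.14, limma adjusted p = 0.037). Asf1b, a chaperone that brings histones to new DNA, averaged 118 ± 25.97 CPM with shSlug1 and 107 ± 22.3 CPM with shSlug2, against 59.6 ± 19.5 CPM with shLuc (log2 change 0.95, SE 0.19, limma adjusted p = 0.0024), the largest log2 change after those of Rpa2 and Tyms among the called members. Rrm2, the regulated subunit of ribonucleotide reductase, averaged 614 ± 53.1 CPM with shSlug1 and 522 ± 61.6 CPM with shSlug2, against 415 ± 48.5 CPM with shLuc (log2 change 0.45, SE 0.10, limma adjusted p = 0.01).

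The remaining members did not pass the test. Uhrf1, which guides maintenance DNA methylation, averaged 41.3 ± 17.9 CPM with shSlug1 and 34.9 ± 11.7 CPM with shSlug2, against 18.5 ± 6.65 CPM with shLuc (log2 change 1.00, SE 0.28, limma adjusted p = 0.051). Chaf1b, of the chromatin assembly factor, averaged 33.3 ± 10.3 CPM with shSlug1 and 23.6 ± 14.05 CPM with shSlug2, against 12.4 ± 2.81 CPM with shLuc (log2 change 1.03, SE 0.30, limma adjusted p = 0.062). Orc6, of the origin recognition complex, averaged 142 ± 19.9 CPM with shSlug1 and 143 ± 33.3 CPM with shSlug2, against 93.9 ± 14.02 CPM with shLuc (log2 change 0.59, SE 0.16, limma adjusted p = 0.058). Pcna, the replication clamp, stood at 123 ± 31.2 CPM with shSlug1 and 104 ± 29.1 CPM with shSlug2, against 84.7 ± 27.8 CPM with shLuc (log2 change 0.42, SE 0.17, limma adjusted p = 0.27), with 222 CPM in starved parental cells. Of the other helicase subunits, Mcm6 averaged 38.6 ± 17.04 CPM with shSlug1 and 44.6 ± 16.5 CPM with shSlug2, against 43.7 ± 6.91 CPM with shLuc (log2 change -0.17, SE 0.24, limma adjusted p = 0.86). Mcm4 averaged 108 ± 28.4 CPM with shSlug1 and 116 ± 16.5 CPM with shSlug2, against 103 ± 8.89 CPM with shLuc (log2 change 0.10, SE 0.15, limma adjusted p = 0.88). The list had 6 calls without shLuc replicate 5, and 11 without shSlug1 replicates 4 and 5.

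**Figure D4:**
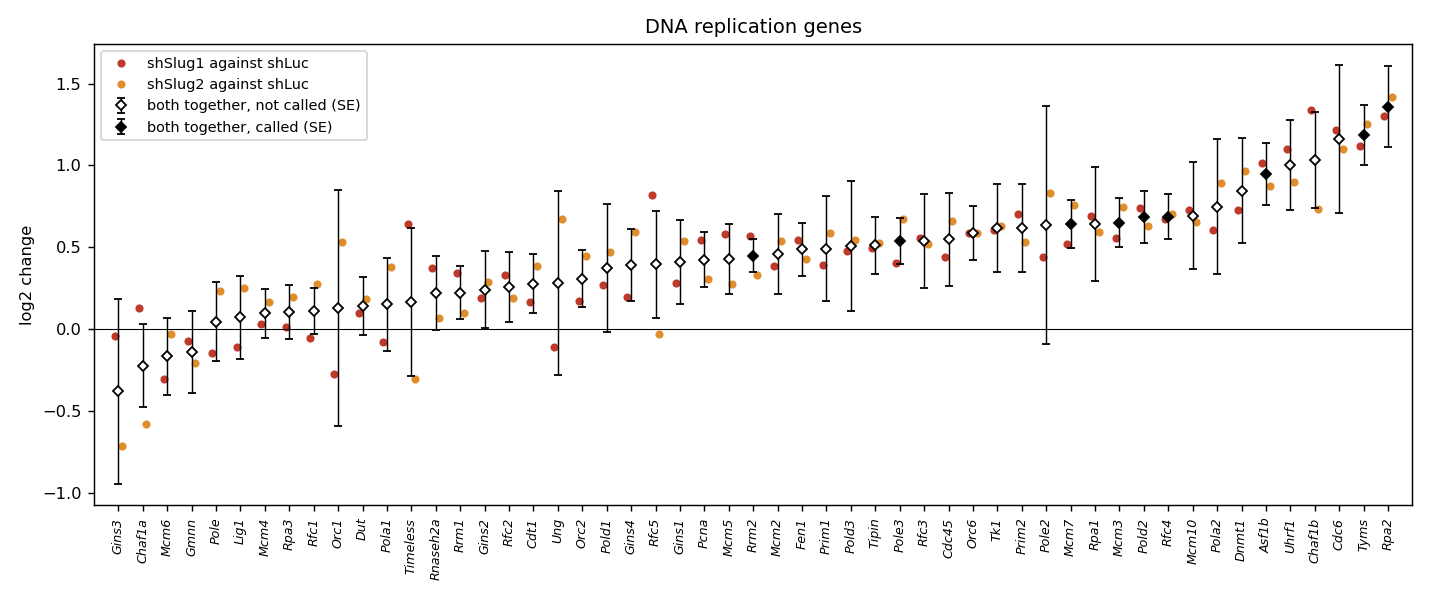
Log2 change against shLuc of the 53 DNA replication genes tested, ordered by the joint change: shSlug1, shSlug2 and both together with its SE (filled where called). Most members lie above 0 with both hairpins, and the 9 called members range from Rrm2 at 0.45 to Rpa2 at 1.36.

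Genes next to replication rose in smaller numbers. Here and in the lists below, the shares to set beside the counts are 0.625% of all genes tested called higher and 0.505% called lower. A list with 1 or 2 calls says little of its other members. Of 25 condensin and cohesin genes, 3 were higher and 0 lower with a median of 0.05: Smc4, Ncapd3 and Ncapg2. Ncapd3, of the second condensin complex, averaged 82.4 ± 21.2 CPM with shSlug1 and 99.5 ± 28.8 CPM with shSlug2, against 46.6 ± 11.9 CPM with shLuc (log2 change 0.94, SE 0.19, limma adjusted p = 0.0038). Ncapg2, of the same complex, averaged 29.9 ± 6.67 CPM with shSlug1 and 39.1 ± 2.92 CPM with shSlug2, against 20.1 ± 13.4 CPM with shLuc (log2 change 0.97, SE 0.26, limma adjusted p = 0.035), but its adjusted p with edgeR was 0.23. The starved parental means were 75.2 CPM for Ncapd3 and 72.1 CPM for Ncapg2, both nearer to the Slug hairpin cells. For Ncapg2 the parental mean was above all hairpin groups. Of 54 mitotic genes 2 were higher and 0 lower (median 0.13). The mitotic kinase Plk1 averaged 129 ± 24.2 CPM with shSlug1 and 155 ± 34.1 CPM with shSlug2, against 84.4 ± 14.3 CPM with shLuc (log2 change 0.73, SE 0.16, limma adjusted p = 0.0079). The kinetochore protein Spc24 averaged 170.0 ± 21.8 CPM with shSlug1 and 132 ± 19.4 CPM with shSlug2, against 79.6 ± 15.6 CPM with shLuc (log2 change 0.91, SE 0.25, limma adjusted p = 0.044) and lost its call without shLuc replicate 5 (adjusted p = 0.12).

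Of 34 nucleotide synthesis genes 2 were higher and 0 lower (median 0.22). One was Mthfd2, the mitochondrial folate enzyme that supplies formate for purine and thymidine synthesis, which had 434, 431, 450.1, 356 and 307 CPM with shSlug1 and 445, 558, 447, 547 and 485 CPM with shSlug2, against 271, 267, 220.2, 263 and 266 CPM with shLuc. The means were 396 ± 61.4 CPM with shSlug1 and 496 ± 53.8 CPM with shSlug2, against 257 ± 20.9 CPM with shLuc. No library overlapped, and the rise was 1.73-fold (log2 change 0.78, SE 0.11, limma adjusted p = 5.0e-06). The amino acid response list, genes driven by ATF4 when amino acids are short, had 2 of 51 members higher and 0 lower (median 0.12). These were Mthfd2 again and Yars, the tyrosyl-tRNA synthetase, at 169.6 ± 32.99 CPM with shSlug1 and 208 ± 27.03 CPM with shSlug2, against 121 ± 24.4 CPM with shLuc (log2 change 0.64, SE 0.16, limma adjusted p = 0.028; adjusted p = 0.065 without shLuc replicate 5). The autophagy and lysosome list had 1 call of 47, Ctse, described below. Pdhb, of pyruvate dehydrogenase, was the one call among 36 genes of the TCA cycle and pyruvate entry, at 119 ± 18.9 CPM with shSlug1 and 139 ± 17.1 CPM with shSlug2, against 84.6 ± 24.1 CPM with shLuc (log2 change 0.63, SE 0.17, limma adjusted p = 0.037).

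Mesenchymal genes formed the list with the most falls. Of 19 tested, 6 were lower and 0 higher, 31.6% against 0.505% of all genes called lower, with a median log2 change of -0.41 (-0.46 with shSlug1, -0.29 with shSlug2). This list too was chosen with earlier results of these data known, so the share is a description and not a test. At an unadjusted limma p under 0.05, 1 member was higher and 7 lower, a cut at which no share of all genes was taken. The mean log2(CPM + 1) of the 19 genes ran from 5.16 to 5.74 in the shSlug1 libraries and from 5.66 to 5.76 in the shSlug2 libraries, against 5.53 to 6.37 in the shLuc libraries. Both hairpin ranges overlapped that of shLuc, and shSlug2 lay wholly within it. S100a4, a calcium-binding protein used as a mesenchymal marker, averaged 46.7 ± 11.3 CPM with shSlug1 and 29.97 ± 6.71 CPM with shSlug2, against 22 ± 16 CPM with shLuc and did not pass the test (log2 change 0.98, SE 0.29, limma adjusted p = 0.081). The 6 called genes were Fbln2, Cald1, Vim, Fn1, Cd44 and Ncam1. The intermediate filament gene Vim, the classical mesenchymal marker, had 247, 239, 219.7, 223 and 194 CPM with shSlug1 and 323, 288, 368, 319 and 365 CPM with shSlug2, against 352, 396, 378, 348 and 602 CPM with shLuc. The means were 225 ± 20.7 CPM with shSlug1 and 332 ± 33.8 CPM with shSlug2, against 415 ± 106 CPM with shLuc. All shSlug1 values were below all shLuc values, shSlug2 overlapped them, and shLuc replicate 5 stood far above the other 4. Over both hairpins Vim was 1.49-fold lower (log2 change -0.58, SE 0.11, limma adjusted p = 0.0006), with log2 changes of -0.86 with shSlug1 and -0.29 with shSlug2, and without shLuc replicate 5 its adjusted p was 0.024.

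Fn1, the matrix protein fibronectin, had 22.95, 42.7, 39.7, 30.02 and 47.2 CPM with shSlug1 and 55.4, 37.4, 35.7, 45.6 and 42.02 CPM with shSlug2, against 40.8, 63.2, 77.5, 53.8 and 94.98 CPM with shLuc. The means were 36.5 ± 9.86 CPM with shSlug1 and 43.2 ± 7.82 CPM with shSlug2, against 66.1 ± 21 CPM with shLuc. The groups overlapped, and Fn1 was 1.66-fold lower over both hairpins (log2 change -0.69, SE 0.18, limma adjusted p = 0.036), but not called without shLuc replicate 5 (adjusted p = 0.25). Cald1, the actin-binding caldesmon, averaged 351 ± 96.9 CPM with shSlug1 and 562 ± 40.4 CPM with shSlug2, against 689 ± 88.1 CPM with shLuc (log2 change -0.64, SE 0.11, limma adjusted p = 0.00033). Ncam1, a neural cell adhesion molecule, averaged 57.2 ± 5.24 CPM with shSlug1 and 115 ± 12.7 CPM with shSlug2, against 153 ± 45.9 CPM with shLuc (log2 change -0.86, SE 0.20, limma adjusted p = 0.01). Both fell mainly with shSlug1, and the hairpins differed (limma adjusted p = 0.00078 for Cald1 and 0.016 for Ncam1). Cd44, the hyaluronan receptor, fell more evenly at 145 ± 35.96 CPM with shSlug1 and 164 ± 18.5 CPM with shSlug2, against 249 ± 76.3 CPM with shLuc (log2 change -0.66, SE 0.14, limma adjusted p = 0.0041). Starved parental cells were above shLuc in 5 of the 6 called genes, with 761 CPM for Vim, 324 CPM for Fn1, 997 CPM for Cald1 and 399 CPM for Cd44, the exception being Ncam1 at 138 CPM. The count of 6 was 3 without shLuc replicate 5, namely Fbln2, Cald1 and Vim, so Cd44 and Ncam1 lost their call as Fn1 did. Of those 3 the hairpins differed in Cald1 and Vim (limma adjusted p = 0.00078 and 0.0083).

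The other EMT factors and the junction genes gave few calls. Of 5 EMT transcription factors tested Snai2 was the one call. Snai1, the close relative of Snai2, had 0 counts in all 15 libraries, which allows 0.602 CPM over them together. Zeb1, another EMT repressor, averaged 51.4 ± 11.1 CPM with shSlug1 and 57.03 ± 15.96 CPM with shSlug2, against 70.1 ± 10.8 CPM with shLuc (log2 change -0.39, SE 0.20, limma adjusted p = 0.45). Zeb2, its relative, averaged 20.6 ± 7.46 CPM with shSlug1 and 33.4 ± 10.1 CPM with shSlug2, against 28.6 ± 7.68 CPM with shLuc (log2 change -0.14, SE 0.34, limma adjusted p = 0.94). Cdh1, which encodes E-cadherin, had 30.02, 38.3 and 52.9 CPM as the lowest, median and highest of the 10 Slug hairpin libraries, against 41.2 to 55.8 CPM with shLuc. Its means were 41.2 ± 10.7 CPM with shSlug1 and 38.7 ± 5.14 CPM with shSlug2, against 49.4 ± 5.84 CPM with shLuc (log2 change -0.32, SE 0.19, limma adjusted p = 0.56), and the groups overlapped. Cdh2, N-cadherin, averaged 5.25 ± 2.53 CPM with shSlug1 and 1.57 ± 1.44 CPM with shSlug2, against 5.202 ± 5.999 CPM with shLuc, too few counts to give a stable sign (log2 change -0.01, SE 0.70, limma adjusted p = 0.998).

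Of 28 junction and polarity genes 1 was called, the tight junction gene Cldn3, with 12.8, 7.11, 18.5, 8.58 and 23.6 CPM with shSlug1 and 2.41, 11.5, 7.66, 4.14 and 3.23 CPM with shSlug2, against 0, 0, 0, 6.33 and 0 CPM with shLuc. The means were 14.1 ± 6.92 CPM with shSlug1 and 5.79 ± 3.77 CPM with shSlug2, against 1.27 ± 2.83 CPM with shLuc. That is 32 counts in 10 Slug hairpin libraries and 2 counts in 5 shLuc libraries, which puts the ratio of the pooled CPM at 7.85 (95% interval from counting error 2.004 to 67.6). Its adjusted p was 0.01 with limma and 0.058 with edgeR, and 0.0501 with limma without shLuc replicate 5. Of 6 simple epithelial keratins tested 2 fell and 0 rose (median -0.60). Krt8 had 146, 204 and 236 CPM as the lowest, median and highest of the 10 Slug hairpin libraries, against 259.6 to 329 CPM with shLuc (log2 change -0.48, SE 0.11, limma adjusted p = 0.017), and Krt7 is given above. Krt19 averaged 203 ± 40.1 CPM with shSlug1 and 193 ± 19.3 CPM with shSlug2, against 211 ± 51.5 CPM with shLuc (log2 change -0.07, SE 0.13, limma adjusted p = 0.92). Krt8, at means of 195 ± 31.8 CPM with shSlug1 and 212 ± 18.6 CPM with shSlug2, against 282 ± 28.4 CPM with shLuc, did not overlap between the groups, and in starved parental cells it averaged 196 CPM, at the level of the Slug hairpin cells.

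Adhesion genes were lower in part. Of 33 integrin and focal adhesion genes 3 fell and 0 rose (median -0.26), among them Phldb2 and Itga6. The laminin receptor chain Itga6 averaged 139.5 ± 21.9 CPM with shSlug1 and 199 ± 32.3 CPM with shSlug2, against 228 ± 6.33 CPM with shLuc (log2 change -0.47, SE 0.12, limma adjusted p = 0.037). It lost its call without shLuc replicate 5 (adjusted p = 0.11). Of 27 YAP target genes 2 fell and 0 rose (median -0.16), Phldb2 and Myof. Myof, a membrane repair protein, averaged 179 ± 34.8 CPM with shSlug1 and 205 ± 22.9 CPM with shSlug2, against 271 ± 28.7 CPM with shLuc (log2 change -0.51, SE 0.12, limma adjusted p = 0.01; adjusted p = 0.081 without shLuc replicate 5). Of 36 matrix genes Fbln2 was the one call (median -0.32).

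Genes downstream of ERK moved in both directions. Of 34 tested, 1 was higher and 3 lower (median -0.11). The rise was in Ier2, an immediate early gene, at 959 ± 150.3 CPM with shSlug1 and 1079 ± 112 CPM with shSlug2, against 777 ± 115 CPM with shLuc (log2 change 0.39, SE 0.11, limma adjusted p = 0.044). The list held 0 rises without shLuc replicate 5, with TMM scaling or with quantile scaling, but 3 with edgeR and 4 with DESeq2. Ccnd1, cyclin D1, had 411, 502, 461, 498 and 534 CPM with shSlug1 and 607, 556, 511, 729 and 527 CPM with shSlug2, against 719, 764, 794, 877 and 706 CPM with shLuc. The means were 481 ± 47.1 CPM with shSlug1 and 586 ± 88.1 CPM with shSlug2, against 772 ± 68.3 CPM with shLuc. In 9 of 10 Slug hairpin libraries it was below the lowest shLuc value, and it was 1.45-fold lower (log2 change -0.54, SE 0.10, limma adjusted p = 0.00045). The starved parental mean of Ccnd1, 556 CPM, lay at the level of the Slug hairpin cells. Ereg, the EGF receptor ligand epiregulin, averaged 18.5 ± 8.21 CPM with shSlug1 and 48.9 ± 11.4 CPM with shSlug2, against 73.04 ± 17.98 CPM with shLuc (log2 change -1.27, SE 0.28, limma adjusted p = 0.0064). Emp1, an epithelial membrane protein, averaged 235 ± 41.5 CPM with shSlug1 and 347 ± 25.3 CPM with shSlug2, against 391 ± 67.5 CPM with shLuc (log2 change -0.45, SE 0.11, limma adjusted p = 0.016; adjusted p = 0.16 without shLuc replicate 5). Both fell mainly with shSlug1, with a limma adjusted p between the hairpins of 0.013 for Ereg and 0.0068 for Emp1. The NF-kB list gave 1 higher and 1 lower of 21. The inhibitor gene Nfkbia averaged 152 ± 19.4 CPM with shSlug1 and 238 ± 29.3 CPM with shSlug2, against 114 ± 32.1 CPM with shLuc (log2 change 0.77, SE 0.18, limma adjusted p = 0.012; adjusted p = 0.087 without shLuc replicate 5). The cofactor gene Nfkbiz averaged 33.9 ± 16.5 CPM with shSlug1 and 25.1 ± 5.89 CPM with shSlug2, against 59.9 ± 16.5 CPM with shLuc (log2 change -1.05, SE 0.22, limma adjusted p = 0.0049).

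Gastric-type genes and nuclear noncoding RNAs gave further calls. Ctse, the gastric protease cathepsin E, had 45.9, 78.2, 90.01, 64.3 and 66.1 CPM with shSlug1 and 118, 144, 135, 112 and 139 CPM with shSlug2, against 174, 214, 254, 228 and 214 CPM with shLuc. The means were 68.9 ± 16.5 CPM with shSlug1 and 129.6 ± 13.9 CPM with shSlug2, against 217 ± 28.9 CPM with shLuc. The 3 groups did not overlap, with shSlug1 lowest and shLuc highest, and the fall was 2.19-fold (log2 change -1.20, SE 0.15, limma adjusted p = 5.6e-08). The starved parental mean of Ctse, 116 CPM, lay at the level of the Slug hairpin cells and below shLuc. Muc5ac, a secreted gastric mucin, averaged 4.56 ± 5.23 CPM with shSlug1 and 6.31 ± 4.01 CPM with shSlug2, against 18.9 ± 7.24 CPM with shLuc (log2 change -1.97, SE 0.52, limma adjusted p = 0.034) and was not called without shLuc replicate 5 (adjusted p = 0.14). These were the 2 calls among 23 foregut and gastric-type genes (median -0.17). Of 18 noncoding RNAs and snoRNA hosts 2 were higher, Snhg15 and Snhg6, and 3 lower, Malat1, Neat1 and Xist (median 0.17). Snhg6 averaged 227 ± 20.3 CPM with shSlug1 and 268 ± 20.2 CPM with shSlug2, against 164 ± 26.9 CPM with shLuc (log2 change 0.60, SE 0.14, limma adjusted p = 0.019). Neat1, the RNA scaffold of nuclear paraspeckles, averaged 63.7 ± 15.2 CPM with shSlug1 and 35.2 ± 4.61 CPM with shSlug2, against 81.8 ± 14.7 CPM with shLuc (log2 change -0.78, SE 0.19, limma adjusted p = 0.019). Xist, the RNA that silences an X chromosome, averaged 122 ± 29.5 CPM with shSlug1 and 98.9 ± 24.2 CPM with shSlug2, against 172 ± 43.6 CPM with shLuc (log2 change -0.64, SE 0.15, limma adjusted p = 0.012; adjusted p = 0.096 without shLuc replicate 5). Starved parental cells averaged 525 CPM of Xist. Neat1 fell mainly with shSlug2 (log2 changes -0.37 with shSlug1 and -1.18 with shSlug2). Without shLuc replicate 5 the list held 1 rise, Snhg15, and 1 fall, Malat1, so Snhg6 and Neat1 lost their calls too. Leaving out shSlug1 replicates 4 and 5 as well left the call of Malat1 alone. The membrane and vesicle trafficking list gave 2 calls of 44, Sdcbp and Golt1b, both higher (median -0.03).

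**Figure D5:**
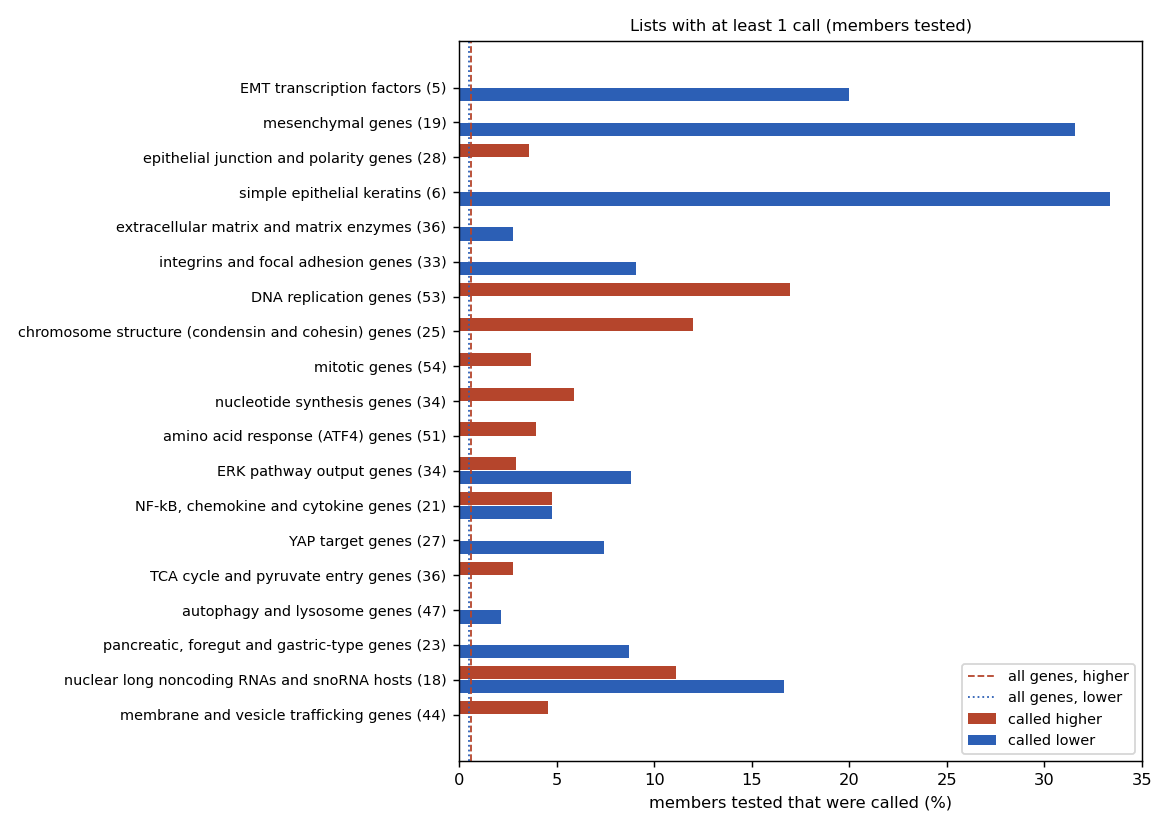
Share of the tested members of each gene list (number tested in brackets) called higher or lower with both Slug hairpins together against shLuc, for the lists with at least 1 call; the dashed and dotted lines mark the 0.625% and 0.505% of all genes tested. DNA replication leads the lists with rises, keratins and mesenchymal genes those with falls, and the keratin share rests on 2 of 6 genes.

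No member was called by limma in 11 lists: actin cytoskeleton (46 tested), interferon response and MHC class I (15), TGF-beta, activin and BMP (34), p53 targets (26), sterol synthesis (32), glycolysis and hypoxia (31), nuclear-encoded respiratory chain (72), mitochondrially encoded (9), cytosolic ribosomal proteins (79), NRF2 and glutathione (40) and endoplasmic reticulum folding (31). Their median log2 changes ran from -0.25 for the mitochondrially encoded and the TGF-beta genes to 0.12 for the respiratory chain. Over these 415 genes limma gave 28 higher and 33 lower at an unadjusted p under 0.05. The share of all genes at that cut was not taken, so these counts do not say whether the lists were quieter than the rest. With edgeR 6 were called higher and 3 lower, and with DESeq2 13 and 3, of which 7 were nuclear-encoded respiratory chain genes called higher. Over all genes tested edgeR called 270 and DESeq2 267, in either direction.

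Of the 56 called genes chosen for naming, 23 were called in each of the 15 fits that left out 1 hairpin library. Called in fewer than 10 of these fits were Spc24 (3), Pclaf (4), Gar1, Ube2h, Itga6, Pdhb, Gmfb and Tmem97 (5 each), Stoml2, Bloc1s4, Fn1, Muc5ac and Ncapg2 (7 each), Ifrd1 (8) and Tcof1, Dync1i2, Yars and Etaa1 (9 each).

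The starved parental cells, which carry no hairpin, give a second level to read the calls against. In 105 of the 141 called genes (59 higher and 46 lower) the parental mean lay nearer to shLuc than to the mean of the 10 Slug hairpin libraries. In the other 36 (19 higher and 17 lower) it lay nearer to the Slug hairpin cells. Among these were Golt1b, Hells, Mcm3, Mcm7, Ncapd3, Ncapg2, Malat1, Ctse, Ccnd1, Ecm1, Rnf181, Krt7 and Krt8. For Vim, Fn1, Fbln2, Apob and Xist the parental level was well above all hairpin groups, so that shLuc lay between the Slug hairpin lines and the parental line. The same order in reverse held for Spc24 (parental 21.4 CPM, shLuc 79.6 CPM) and Rrm2 (parental 257 CPM, shLuc 415 CPM). The count of 105 rests on distance alone, so it does not say that shLuc matched the parental line. No such share was taken over all genes tested.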

How the data were processed

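Per the labels' protocols, a PureLink kit was used for total RNA of KPC cells and a QIAseq UPX 3' kit for the libraries. The authors deposited 1 table of CPM values for 30926 genes, of which 2766 had 0 in all 25 libraries, every column having the same sum. Dividing by the smallest step gave whole numbers for every value (tolerance 0.001), so counts were recovered from the deposited CPM. The genome build was mm10, per the submitters' processing notes. The sources used here do not state the aligner, the annotation, strand use or the handling of molecular identifiers and shared reads, and genes with close copies or overlapping neighbours carry an uncertainty that replicates do not show. Coordinates and symbols were looked up in GENCODE M21 by gene ID without version (30857 found), and promoters are from RefSeq, GRCm38.p6.

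limma-trend (limma 3.58.1, R 4.3.3) was fitted to log2(CPM + 1) of all 25 libraries with 5 group coefficients and 20 residual degrees of freedom, for the 12473 genes that reached 5 CPM in 5 or more libraries. The contrast was the mean of the shSlug1 and shSlug2 coefficients minus shLuc, each hairpin thus weighing equally. Tests were two-sided with Benjamini-Hochberg adjustment over all 12473 genes, and called means an adjusted p under 0.05. Fold changes on the log2(CPM + 1) scale understate the change of low genes; folds in the text are ratios of mean CPM. Recovered counts were tested with edgeR 4.0.16 (quasi-likelihood) and DESeq2 1.42.0. The fits were tested on simulated data.

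The gene rule took Snai2, the 10 risen and 10 fallen genes with an even change, no overlap and at least 10 CPM, ranked by the smaller hairpin change, up to 10 per direction of those called with both hairpins together only, ranked by p, up to 3 called members of each list, and 10 EMT and epithelial genes; 3 of the genes it took are not reported here. Ier2, Snhg6, Neat1, Cd44, Ncam1, S100a4 and the replication genes beyond the first 3 were named after their values were seen. Members, lists and alternatives were chosen with earlier results of these data known.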

Additional observations from a re-analysis of the deposited data

Results flagged for a closer look

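Among 243 sets of 5 libraries (the named genes, total counts and mitochondrial share), 12 held a library apart from the other 4 by Dixon's criterion at the 5% level, which chance alone passes in about 1 set of 20. Of the shSlug1 libraries, replicate 1 had 476.9 CPM of Phldb2, against 343 to 359 CPM in the other 4, and 0 CPM of Snai2, against 5.29 to 9.45 CPM. In shSlug1 replicate 4 St3gal4 was 12.9 CPM, against 35.7 to 39.7 CPM in the other 4. Of the shLuc libraries, replicate 3 had 220.2 CPM of Mthfd2 (263 to 271 CPM in the other 4), 43.4 CPM of Ereg (72.8 to 87.98 CPM) and 9.30 CPM of Tmem97 (26.0 to 37.99 CPM). In shLuc replicate 5 Vim was 602 CPM, against 348 to 396 CPM in the other 4, and in shLuc replicate 4 Cldn3 was 6.33 CPM, against 0 in the other 4. Of the shSlug2 libraries, replicate 3 had 202 CPM of Orc6, against 120.4 to 133 CPM in the other 4, and replicate 1 had 417 CPM of Rrm2, against 524 to 572 CPM. In shLuc replicate 1 Neat1 was 55.6 CPM, against 85.2 to 89.9 CPM in the other 4, and Uhrf1 was 7.42 CPM, against 18.996 to 24.8 CPM.

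The size of the change differed between the hairpins in 7 named genes, all lower with both hairpins and lower with shSlug1 than with shSlug2. The log2 difference shSlug1 minus shSlug2 was -0.49 for Phldb2 (limma adjusted p = 0.019), -0.93 for Ctse (0.00082), -0.72 for Cald1 (0.00078), -0.99 for Ncam1 (0.016), -0.56 for Vim (0.0083), -1.43 for Ereg (0.013) and -0.58 for Emp1 (0.0068).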

How the results depend on the processing

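Snai2 was called lower in each of the 29 alternative settings, with log2 changes of -3.76 to -2.58 (-3.60 to -3.15 leaving out 1 library) and a limma, edgeR or DESeq2 adjusted p of at most 0.00027. The 141 calls became 267 with DESeq2 (131 shared), 270 with edgeR (135 shared) and 86 without shLuc replicate 5 and shSlug1 replicates 4 and 5 (69 shared). Leaving out 1 library gave 67 to 146 calls. The lowest was without shLuc replicate 5 (62 shared), and 86 were called without shLuc replicate 4. The share of calls that were higher, 55.3% as reported, ran from 44.2% with no filter to 73.3% without the 3 libraries. It was also under 50% with quantile scaling (47.5%) and without mitochondrial genes (48.5%), and 64.2% without shLuc replicate 5. The 19 genes called with both hairpins together only became 42 with edgeR, 34 with the hairpin libraries only, 29 with a minimum of 20 CPM, 33 with a pseudocount of 5 and 31 without shSlug1 replicates 4 and 5, the last added after seeing the data. Leaving out 1 library gave 5 to 22 (5 without shLuc replicate 1 or 5, 6 without 4, 8 without 2, 12 without 3). Fitting the Slug hairpins as 1 group gave 108 calls and no value for this class. The mesenchymal genes called lower were 3, in place of 6, without shLuc replicate 5 and without the 3 libraries together (3 to 6 leaving out 1), and replication genes called higher were 6 to 11 leaving out 1, counts taken after seeing the data. Replicate numbers did not pair the libraries: deviations of libraries with the same number correlated at -0.050 to 0.014, and no library correlated best with its own number. With the replicate block 138 genes were called, and 29 with both hairpins together only. Of the 56 called genes chosen for naming, 27 lost their call without shLuc replicate 5, 24 without the 3 libraries and 0 with TMM scaling. Krt19 changed sign without shLuc replicate 1 (log2 change 0.043; -0.21 to 0.043 leaving out 1 library). Cdh2 did so with TMM scaling (0.01), a pseudocount of 0.5 (0.12), without the 3 libraries (0.31), without mitochondrial genes (0.035) and without each of 7 single libraries (-0.47 to 0.47 leaving out 1). The cause of these moves was not tested. The median log2 change of all genes stayed between -0.08 and 0 in all settings. At 2.37 to 4.72 CPM per count, changes of genes under about 10 CPM rest on few counts.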
